A study of Homo sapiens with 8 samples.

Results

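Genes that sense foreign or misplaced nucleic acids, or that carry the signal of such sensors, were followed in A549 cells treated with IFN-γ and the compound AX-0085. They were chosen by name, as TLR3, RIGI, IFIH1, DHX58, EIF2AK2, CGAS, IFI16, STING1, MAVS and TBK1, and make up 10 of the 60664 genes in the count table. Of these, 9 had counts and passed the filter on low counts, and 1, RIGI, had no count in any library. A549 is a human lung adenocarcinoma line, and 8 RNA libraries were made from it, 2 for each of 4 groups. The groups were cells with no treatment, cells given AX-0085 to 0.5 μM, cells given IFN-γ at 20 ng, and cells given both agents. In the group with both agents, IFN-γ was added 24 h before AX-0085, and cells given the compound were harvested 24 h after it. The harvest time of the groups without AX-0085 was not established here. The length of IFN-γ exposure may thus differ between IFN-γ alone and both agents. The labels give the IFN-γ dose without a volume and name neither a vehicle in the groups without AX-0085 nor separate cultures for the 2 libraries of a group, so that the p-values measure the spread between these libraries, which may be technical. AX-0085 is a kinase inhibitor candidate that the study picked for lowering the activation of a PD-L1 reporter by IFN-γ.

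Nucleic acid sensors detect viral genomes and replication products, and also the cell's own RNA or DNA when it is in the wrong place or form. TLR3 recognizes paired-strand RNA inside endosomes. RIGI and IFIH1, also known as MDA5, recognize RNA in the cytosol and signal through the mitochondrial adaptor MAVS, while DHX58, also known as LGP2, lacks their signaling domains and regulates them. EIF2AK2 encodes PKR, a kinase that binds RNA and stops translation by phosphorylating eIF2α. CGAS binds DNA and makes the messenger cyclic GMP-AMP, which activates STING1, and IFI16 is a DNA-binding protein linked to the same route. Both MAVS and STING1 lead to the kinase TBK1, which activates interferon regulatory factors. Several of these sensors are themselves interferon-inducible, so that IFN-γ, whose receptor signals through JAK kinases, can change how well epithelial cells detect nucleic acids.

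The levels below are CPM, counts relative to library sizes that were scaled by TMM factors, and a gene was called when the Benjamini-Hochberg-adjusted p of edgeR's quasi-likelihood test was under 0.05 and the change was over 2-fold. The libraries held between 20672828 and 29978251 counts, at which 3 counts equal 0.0959 to 0.158 CPM, a limit that covers counting error only. No library could be matched to a batch, since the labels give none. The 5 epithelial markers summed to 6425 to 6881 CPM without treatment, 3224 to 3397 after AX-0085, 2575 to 2882 after IFN-γ and 3607 to 3661 after both, and all 5 had counts. Most of the sum came from KRT8, at 32475 to 123194 counts, and KRT18, at 21681 to 68523. CDH1 had 203 to 2557 counts, KRT19 184 to 1262 and EPCAM 7 to 229. Among the alveolar type II markers, NKX2-1 and SFTPA1 had 0 counts in every library and SFTPB and SFTPC had at most 1 and 12, while ABCA3 had 736 to 2267. The labelled line thus showed epithelial markers, and the defining alveolar ones had counts at or near 0. Whether any marker lies inside the span of another gene was not checked. Marker counts of 0 in this paragraph may therefore not be levels. Immune markers summed to at most 0.159 CPM, with CD3E, MS4A1 and CD68 at 0. Endothelial markers summed to at most 0.529 CPM and fibroblast markers to 3.06 to 10.8 CPM, with COL1A2 at 0. The part of the lower epithelial marker sum in the results below was not tested. In these bulk samples, fewer cells of a kind and less RNA per cell cannot be told apart.

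Promoter stretches were read for members whose RNA changed and for a contrast. RefSeq windows of the GRCh38.p14 build, from 250 bases before to 50 after the transcription start, were found for 7 of the 10 members. DHX58, CGAS and STING1 had no entry. Both strands were searched for the core of the interferon-stimulated response element, GAAANNGAAA, and for the gamma-activated site, TTCNNNGAA, an element of promoters that respond to IFN-γ. The stretches printed here run from 180 bases before to 30 bases after the start, with matches in capitals. TLR3 holds 1 match to the response element at the start and 2 to the gamma-activated site, IFIH1 holds 3 matches to the response element, of which 2 overlap, and EIF2AK2 holds 1 at the start. The 2 windows of IFI16, of which the downstream one is shown, and that of MAVS held neither, and IFI16 and MAVS are shown because IFI16 had the largest rise among members with IFN-γ and MAVS was lower.
TLR3, chr4:186068976-186069185, plus strand: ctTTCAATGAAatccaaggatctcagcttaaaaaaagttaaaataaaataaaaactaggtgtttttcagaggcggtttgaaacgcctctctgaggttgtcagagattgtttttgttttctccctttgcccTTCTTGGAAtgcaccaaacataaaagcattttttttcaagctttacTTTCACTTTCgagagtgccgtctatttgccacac
IFIH1, chr2:162318655-162318864, minus strand: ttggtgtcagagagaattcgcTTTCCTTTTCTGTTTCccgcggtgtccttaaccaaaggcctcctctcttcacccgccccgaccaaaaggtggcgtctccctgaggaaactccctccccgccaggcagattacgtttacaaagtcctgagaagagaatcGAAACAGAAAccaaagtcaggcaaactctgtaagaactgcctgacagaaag
EIF2AK2, chr2:37156951-37157160, minus strand: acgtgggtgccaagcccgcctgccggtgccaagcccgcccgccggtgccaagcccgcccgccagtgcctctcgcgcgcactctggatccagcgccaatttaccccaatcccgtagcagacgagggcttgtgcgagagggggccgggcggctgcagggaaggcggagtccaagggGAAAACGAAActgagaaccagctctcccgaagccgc
IFI16, chr1:159009727-159009936, plus strand: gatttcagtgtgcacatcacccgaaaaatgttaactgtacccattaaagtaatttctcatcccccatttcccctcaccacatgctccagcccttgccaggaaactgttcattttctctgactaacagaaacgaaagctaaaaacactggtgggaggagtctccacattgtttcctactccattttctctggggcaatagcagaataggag
MAVS, chr20:3846654-3846863, plus strand: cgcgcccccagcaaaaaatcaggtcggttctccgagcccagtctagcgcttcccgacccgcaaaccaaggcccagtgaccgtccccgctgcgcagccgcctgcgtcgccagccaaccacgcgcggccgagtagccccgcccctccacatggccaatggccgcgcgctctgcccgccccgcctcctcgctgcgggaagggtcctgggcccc

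The response element core was present in 3 of the 7 members with a window, against 3.57% of all 35116 windows of the same length, and the gamma-activated site in 1 of 7, against 7.66%. Members were counted by gene, with 8 windows for the 7, and the background by window. These matches are letters in a window and no measured binding. The windows of RIGI and TBK1 held neither motif. In the GENCODE 44 annotation, TLR3 begins at chr4:186068911 and EIF2AK2, on the minus strand, at chr2:37157522. Both points lie upstream of the printed stretches, which thus fall within the annotated genes. Whether these stretches fall within an exon is not shown here. IFI16 is annotated there from chr1:158999968, far upstream of its windows, which begin at 159008741 and 159009657. The sequence around that start was not searched, so that the missing matches hold for the windows only.

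The endosomal sensor TLR3 was under 1 CPM in untreated cells and rose with IFN-γ. Its level was 0.794 and 0.733 CPM in the 2 untreated libraries, 13.3 and 14.2 after IFN-γ, 3.19 and 3.69 after AX-0085, and 3.81 and 5.53 after both. The levels of the 4 groups did not overlap, and the groups with a single agent or both all lay above untreated cells. IFN-γ raised TLR3 by 4.15 on the log2 scale (SE 0.26), a 17.8-fold change (adjusted p = 1.768e-09). AX-0085 alone raised it by 2.16 (SE 0.28, adjusted p = 1.273e-05), whereas its change with AX-0085 added to IFN-γ was -1.58 (SE 0.16, adjusted p = 1.253e-06). TLR3 lay 5.94-fold above untreated cells with both agents (adjusted p = 1.357e-06). It was 1.33-fold higher with both than with AX-0085 alone, which did not pass the test (adjusted p = 0.101). The gene lies at chr4:186068911-186088073 on the plus strand (ENSG00000164342), and no other annotated gene shares its exons.

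Among the cytosolic RNA sensors, IFIH1 rose 12.0-fold with IFN-γ and RIGI could not be measured. IFIH1 (ENSG00000115267, chr2:162267074-162318684, minus strand) stood at 2.75 and 2.40 CPM without treatment, at 5.02 and 4.78 after AX-0085, at 30.8 and 31.4 after IFN-γ and at 7.71 and 7.15 after both. Its groups did not overlap, and the 2 libraries of a group lay close together. The log2 change was 3.59 with IFN-γ (SE 0.12, adjusted p = 2.545e-11) and -2.06 when AX-0085 followed it (SE 0.10, adjusted p = 1.361e-09). AX-0085 alone gave 0.92 (SE 0.14, adjusted p = 8.26e-05), under the 2-fold threshold, and 1.04 without untreated replicate 1, which passed it. With both agents IFIH1 was still 2.88-fold above untreated cells (adjusted p = 4.407e-07).

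RIGI (ENSG00000107201, chr9:32455302-32526208, minus strand), the sensor of RNA with a triphosphate end, had 0 counts in all 8 libraries. In GENCODE 44, 99.8% of its exon bases lie inside the span of a read-through gene on the same strand, ENSG00000288684, and 43.2% inside the exons of that gene. The read-through gene had between 2 and 9 counts per library. Of the 2688 protein-coding genes with at least 99% of exon bases inside the span of another gene, 2145 (79.8%) were at 0 in all libraries, against 1311 of 8779 (14.9%) with no exon base inside another gene. The 0 counts were therefore not read as a level of RIGI, and no comparison was made for it.

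DHX58 (ENSG00000108771, chr17:42101404-42112714, minus strand) was close to the limit of detection. Its counts were 3 and 7 without treatment, 6 and 7 after AX-0085, 17 and 9 after IFN-γ, and 13 and 9 after both, or 0.0993 to 0.898 CPM. The IFN-γ libraries, at 0.898 and 0.362 CPM, lay further from each other than the mean of 0.630 ± 0.379 CPM (SD, n = 2) lay from the untreated mean of 0.192 ± 0.131. The log2 change of 1.68 (SE 0.62, adjusted p = 0.01979) passed both thresholds. It did not pass without untreated replicate 1 (1.09, adjusted p = 0.1621), without IFN-γ replicate 1 (0.98, adjusted p = 0.2308) with DESeq2 (1.78, adjusted p = 0.085) or with glmTreat against a 2-fold change (adjusted p = 0.2294). No other comparison of DHX58 passed the test.

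EIF2AK2 was abundant before treatment and changed by less than 2-fold. It is annotated at chr2:37099210-37157522 on the minus strand (ENSG00000055332). The untreated libraries had 110.7 and 97.9 CPM, those with AX-0085 had 106.7 and 118.6, those with IFN-γ had 145.9 and 185.6, and those with both had 98.0 and 100.4. Both IFN-γ libraries were above all others, and the other treated groups overlapped with untreated cells. IFN-γ gave a log2 change of 0.67 (SE 0.10, adjusted p = 5.774e-05), and AX-0085 added to it gave -0.74 (SE 0.10, adjusted p = 2.63e-05). Neither passed the 2-fold threshold. With both agents EIF2AK2 differed from untreated cells by -0.07 (95% interval -0.29 to 0.14, adjusted p = 0.5601).

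**Figure D1:**
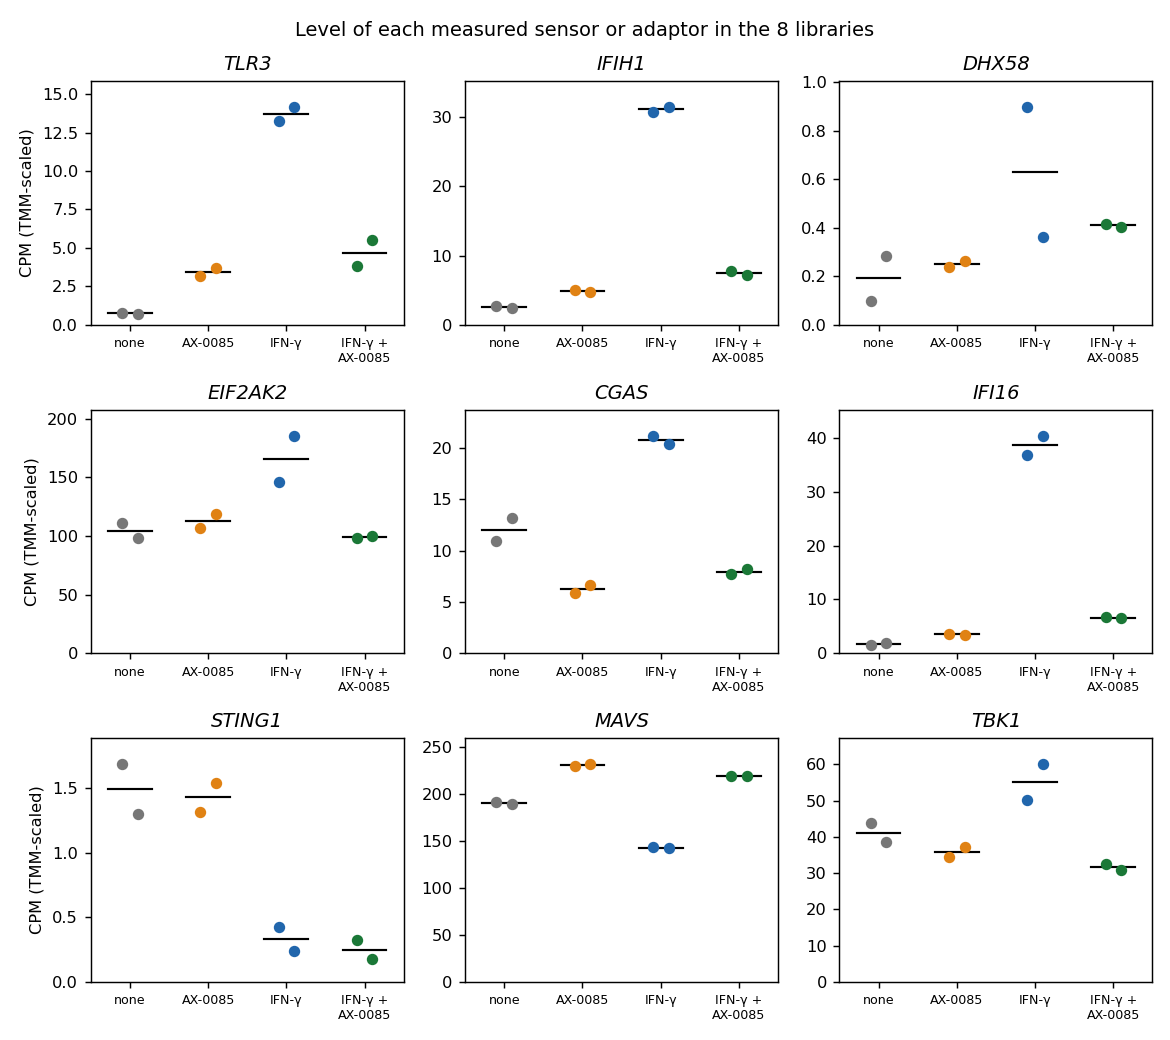
Each panel plots 1 measured gene, with the CPM after TMM scaling on a linear y axis from 0 and the 4 treatment groups on the x axis. Points are the 2 libraries of a group and the bar is their mean. TLR3, IFIH1 and IFI16 peak with IFN-γ alone, at 13.3 to 40.4 CPM, and EIF2AK2, CGAS and TBK1 are also highest there. STING1 stays at or under 0.422 CPM in the 4 libraries with IFN-γ.

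The DNA sensors IFI16 and CGAS moved by different amounts. IFI16 (ENSG00000163565, chr1:158999968-159055155, plus strand) stood at 1.46 and 1.96 CPM without treatment, at 3.58 and 3.46 after AX-0085, at 36.8 and 40.4 after IFN-γ and at 6.65 and 6.52 after both. The groups did not overlap, and the IFN-γ libraries lay far above all others. The rise with IFN-γ was 22.9-fold, or 4.52 on the log2 scale (SE 0.15, adjusted p = 1.289e-11). AX-0085 added to IFN-γ lowered IFI16 by 5.86-fold (log2 -2.55, SE 0.11, adjusted p = 4.453e-10), to a level 3.90-fold above untreated cells (adjusted p = 2.285e-07). AX-0085 alone raised it by 1.06 on the log2 scale (SE 0.17, adjusted p = 0.00016), just past the threshold, and the change was 0.86 and not called without untreated replicate 1. PYDC5 on the opposite strand covers 8.03% of the exon bases of IFI16, and the strand setting of the counting is not given in the sources used here.

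CGAS, the enzyme of the cytosolic DNA route, was measured at chr6:73413515-73452297 on the minus strand (ENSG00000164430), where the opposite-strand gene DDX43 spans 12.1% of its exon bases. Its level was 11.0 and 13.2 CPM without treatment, 5.86 and 6.70 after AX-0085, 21.2 and 20.4 after IFN-γ, and 7.77 and 8.18 after both. Untreated cells lay between the IFN-γ libraries and the libraries with AX-0085, without overlap. AX-0085 added to IFN-γ gave CGAS a log2 change of -1.39 (SE 0.11, adjusted p = 2.216e-07). IFN-γ gave 0.79 (SE 0.11, adjusted p = 2.394e-05) and AX-0085 alone gave -0.94 (SE 0.12, adjusted p = 2.654e-05), both under the 2-fold threshold. The change with AX-0085 alone passed it without untreated replicate 1 (-1.05) and without AX-0085 replicate 2 (-1.04). With both agents the log2 difference of CGAS from untreated cells was -0.60 (adjusted p = 0.0007219).

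The adaptor STING1 was the only measured member called lower with IFN-γ, and it was low throughout. STING1 (ENSG00000184584, chr5:139475533-139482935, minus strand) gave 51 and 32 counts without treatment, 33 and 41 after AX-0085, 8 and 6 after IFN-γ, and 10 and 4 after both. These are 1.69 and 1.303 CPM, 1.31 and 1.54 CPM, 0.422 and 0.241 CPM, and 0.320 and 0.180 CPM. The 4 libraries with IFN-γ all lay below the 4 without it. STING1 fell with IFN-γ to 4.67-fold below untreated cells (log2 -2.22, SE 0.43, adjusted p = 0.0001404). In the presence of AX-0085, IFN-γ lowered it by 5.40-fold (log2 -2.43, SE 0.43, adjusted p = 0.0003284). The change upon adding AX-0085 to IFN-γ was -0.29, with a 95% interval of -1.49 to 0.92 (adjusted p = 0.6589), a range that the low counts leave wide and that includes 0.

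The mitochondrial adaptor MAVS and the kinase TBK1 were among the more abundant members and changed by less than 2-fold. MAVS (ENSG00000088888, chr20:3846799-3876123, plus strand) stood at 192.1 and 189.1 CPM without treatment, at 229.5 and 232.0 after AX-0085, at 144.0 and 142.1 after IFN-γ and at 218.8 and 219.6 after both. Its IFN-γ libraries were the lowest and did not overlap with the rest, whereas those of TLR3, IFIH1, IFI16, EIF2AK2, CGAS and TBK1 were the highest. The log2 change was -0.41 with IFN-γ (SE 0.05, adjusted p = 1.693e-05) and 0.62 when AX-0085 followed it (SE 0.05, adjusted p = 4.698e-07). TBK1 (ENSG00000183735, chr12:64452090-64502114, plus strand) stood at 43.7 and 38.5 CPM without treatment, at 34.6 and 37.3 after AX-0085, at 50.1 and 60.1 after IFN-γ and at 32.6 and 30.8 after both. It was highest with IFN-γ and lowest with both. The log2 change was 0.42 with IFN-γ (SE 0.09, adjusted p = 0.001378) and -0.80 with AX-0085 added (SE 0.10, adjusted p = 8.009e-06). None of these changes passed the 2-fold threshold, and 12.2% of the exon bases of TBK1 lie within the spans of long noncoding genes.

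Counted over the comparison of IFN-γ with untreated cells, 4 of the 9 measured members were called higher (IFI16, TLR3, IFIH1 and DHX58) and 1 lower (STING1). Of all 15066 genes tested, 10.3% were called higher and 17.2% lower. The median log2 change was 0.79 for the members and -0.06 for all genes. DESeq2 called 3 members higher with IFN-γ, without DHX58, and 1 lower, beside 3677 of 17135 genes in both directions together. When AX-0085 followed IFN-γ, 4 members were called lower (IFI16, IFIH1, TLR3 and CGAS) and 0 higher, beside 8.31% and 16.6% of all genes. The member that was higher at an adjusted p under 0.05 was MAVS. AX-0085 alone gave 2 members called higher (TLR3 and IFI16) and 0 lower, beside 6.48% and 5.64% of all genes, and CGAS was lower at an adjusted p under 0.05. At an adjusted p under 0.05 and any fold, 7 members were higher and 2 lower with IFN-γ, beside 32.1% and 36.0% of all genes. The same rule gave 1 higher and 6 lower when AX-0085 followed IFN-γ, beside 33.8% and 32.8%, and 4 higher and 1 lower with AX-0085 alone, beside 26.8% and 26.7%. Where edgeR called 0 members, DESeq2 also called 0, and 1 member each was higher upon AX-0085 after IFN-γ and lower with AX-0085 alone at an unadjusted p under 0.05. These comparisons share libraries and are not independent of each other.

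**Figure D2:**
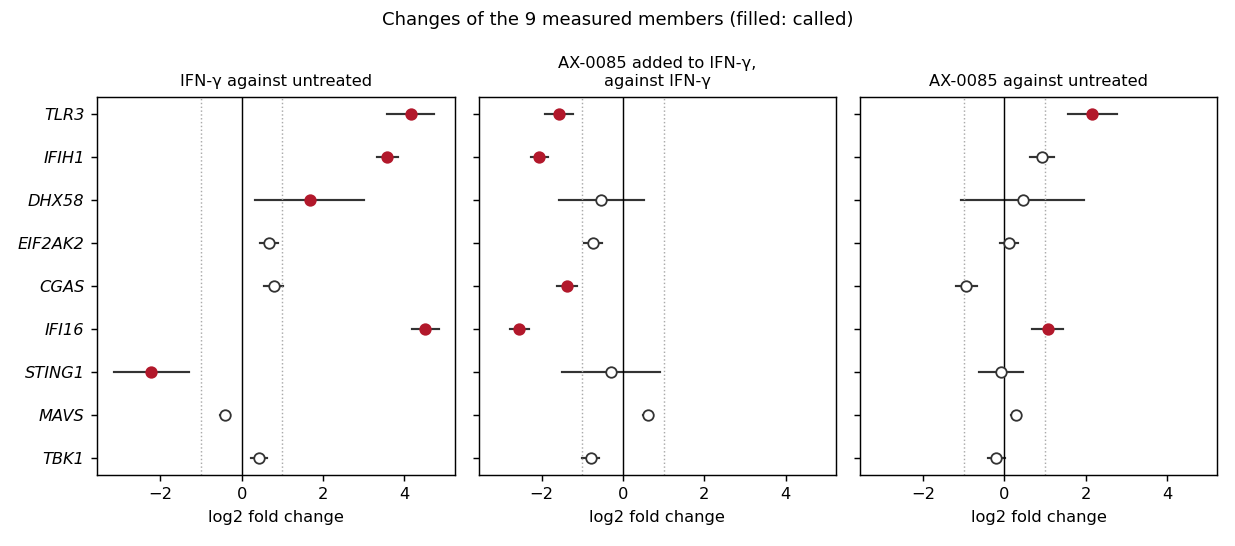
The x axis of each panel is the log2 fold change of edgeR's quasi-likelihood fit, with bars for its 95% interval, and the y axis lists the 9 measured members. Filled points were called, and dotted lines mark a 2-fold change. Changes with IFN-γ run from -2.22 for STING1 to 4.52 for IFI16, and the widest intervals belong to DHX58 and STING1, the members with fewest counts.

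How much of the IFN-γ change remained with AX-0085 was asked by comparing IFN-γ against no IFN-γ within each AX-0085 state. Without AX-0085 the log2 change of TLR3 was 4.15, and with it 0.41, which is 9.89% of the former. The share was 16.9% without replicate 1 of both agents and 3.55% without replicate 2, so that its size rests on those libraries. With all libraries, the share was 16.9% for IFIH1, from 3.59 to 0.60, and 20.0% for IFI16, from 4.52 to 0.90. For STING1 it was 109%, from -2.22 to -2.43, and 93.0% to 135% over the fits that left out 1 library. The share was 43.1% for CGAS, from 0.79 to 0.34, 41.6% for DHX58, from 1.68 to 0.70, and 17.9% for MAVS, from -0.41 to -0.07. EIF2AK2 went from 0.67 to -0.18 and TBK1 from 0.42 to -0.18. With AX-0085 present, the changes of CGAS, DHX58, MAVS, EIF2AK2 and TBK1 did not pass the test. The interaction term, which tests this difference, was -3.74 for TLR3 (SE 0.32, adjusted p = 4.928e-07), -3.61 for IFI16 (SE 0.20, adjusted p = 2.06e-08) and -2.98 for IFIH1 (SE 0.17, adjusted p = 2.222e-08). Those 3 members were called lower in the interaction and 0 higher, beside 6.54% and 12.2% of all genes. At an adjusted p under 0.05 and any fold, 6 were lower and 1 higher, beside 23.7% and 26.8%. DESeq2 likewise called 0 higher, and 1 was higher at an unadjusted p under 0.05. STING1 gave -0.21, with a 95% interval of -1.53 to 1.11 (adjusted p = 0.791), an interval that includes both no difference and one of 2-fold.

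The remaining change is read against cells given AX-0085 alone, in which TLR3 and IFI16 were themselves called higher than in untreated cells. With both agents against AX-0085 alone, 0 members were called higher and 1 lower (STING1), beside 1.79% of all genes in each direction. IFI16 differed by 0.90 (adjusted p = 0.0002642) and IFIH1 by 0.60 (adjusted p = 0.001479), both under the 2-fold threshold. Against untreated cells, 3 members were called higher with both agents (TLR3, IFI16 and IFIH1) and 1 lower (STING1), beside 7.59% and 7.28% of all genes. By the adjusted p at any fold, 4 were higher and 3 lower against untreated cells, beside 28.2% and 28.9%, and 2 higher and 1 lower against AX-0085 alone, beside 17.3% and 17.5%. DESeq2 also called 0 higher against AX-0085 alone, where 4 were higher at an unadjusted p under 0.05.

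**Figure D3:**
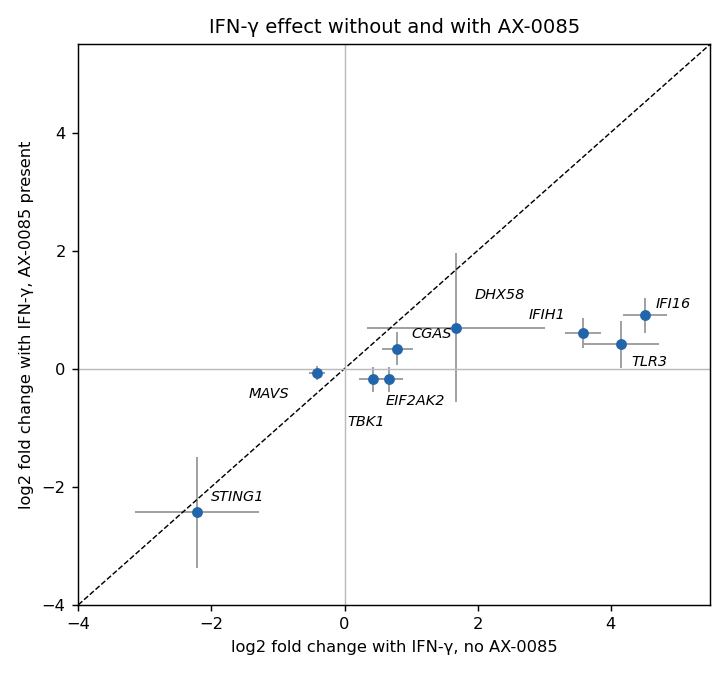
The x axis is the log2 fold change with IFN-γ in cells without AX-0085 and the y axis the same change in cells with AX-0085, from separate libraries, with 95% intervals as bars. On the dashed line both changes would be equal. STING1 lies near it at -2.22 and -2.43, while TLR3, IFIH1 and IFI16 lie far to the right at 3.59 to 4.52 against 0.41 to 0.90.

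Levels of different genes were compared as CPM per kilobase of merged exons. Merged exons cover all annotated transcripts of a gene and can be longer than the one expressed, so that the order depends on this length. TBK1 has 14716 merged bases and CGAS 4174, and before division by length they were at 41.1 and 12.1 CPM in untreated cells. In untreated cells MAVS was highest at 16.2 ± 0.178 (SD, n = 2) and EIF2AK2 next at 9.45 ± 0.825. CGAS at 2.89 and TBK1 at 2.79 followed and did not differ beyond their spread. IFIH1 at 0.493, IFI16 at 0.322, STING1 at 0.312, TLR3 at 0.102 and DHX58 at 0.0503 came last, and the gap between IFI16 and STING1 was within their spread. The smallest gap between the first 4 genes and the last 5, that of TBK1 and IFIH1, was 2.30.

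With IFN-γ the order changed to EIF2AK2 at 15.0, MAVS at 12.2, IFI16 at 7.30, IFIH1 at 5.96, CGAS at 4.99, TBK1 at 3.75, TLR3 at 1.83, DHX58 at 0.165 and STING1 at 0.0692. Of the 8 gaps between neighbours in this order, the gap between DHX58 and STING1 did not exceed the larger SD of the pair. With both agents the order was MAVS, EIF2AK2, TBK1, CGAS, IFIH1, IFI16, TLR3, DHX58 and STING1, from 18.6 to 0.0521, and each gap exceeded that SD. AX-0085 alone gave the same order for the first 6 of these genes, from 19.6 to 0.666, followed by TLR3, STING1 and DHX58.

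Ratios within a library show how sensor and adaptor RNA shifted against each other. Per kilobase, MAVS exceeded IFIH1 by 31.1 and 34.9 times in the untreated libraries and by 2.08 and 2.01 times in those with IFN-γ. The ratio was 20.3 and 21.5 with AX-0085 and 12.6 and 13.6 with both. CGAS exceeded STING1 by 7.48 and 11.6 times without treatment, 5.12 and 4.99 times after AX-0085, 57.8 and 97.3 times after IFN-γ, and 27.9 and 52.3 times after both. The ratio of IFI16 to CGAS, the 2 DNA sensors, was 0.104 and 0.117 without treatment and 1.37 and 1.56 after IFN-γ. It was 0.483 and 0.407 with AX-0085 and 0.675 and 0.628 with both. In each of the 3 ratios, the IFN-γ libraries did not overlap with any other group. For CGAS over STING1 the gap was narrow, 57.8 after IFN-γ against 52.3 after both. It rested on few STING1 counts, 8 and 6 after IFN-γ and 10 and 4 after both.

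The genes whose pattern over the 8 libraries was nearest to each member were found by the root mean square difference of log2 CPM from the mean of the untreated libraries, among 10125 genes with enough expression. They were RAB39B (0.34) and SPX (0.41) for TLR3, ZFAS1 (0.17) and DTX3L (0.19) for IFIH1, and PSMB10 (0.22) and APOL6 (0.28) for IFI16. For CGAS they were EBNA1BP2 (0.09) and SOCS2 (0.10), for EIF2AK2 ZBTB6 (0.07) and CHRFAM7A (0.07), for MAVS EVI5L (0.05) and ATP6V0A1 (0.06), and for TBK1 HYCC1 and MKLN1 (both 0.06). The nearest patterns to STING1, NUDT1 (0.61) and MMP7 (0.62), and to DHX58, EIF4EBP1 and STARD7-AS1 (both 0.42), were less alike, and both members have few counts. Among members, IFIH1 and IFI16 were nearest to each other at 0.53, as were EIF2AK2 and TBK1 at 0.25.

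Other genes of the sensing pathways were taken from a list of 50, of which 34 passed the filter. With IFN-γ, 8 of the 34 were called higher and 4 lower, beside 10.3% and 17.2% of all genes, and their median log2 change was 0.31 against -0.06 for all genes. The largest rises were those of DDX60, a helicase linked to RIGI signaling, PPP1R15A, which directs a phosphatase to eIF2α and so opposes PKR, and IRF7, a factor that drives interferon genes. DDX60 went from 6.42 and 6.84 to 70.6 and 82.6 CPM, a log2 change of 3.53 (SE 0.11, adjusted p = 3.367e-11). PPP1R15A went from 46.9 and 49.6 to 430.1 and 417.5 CPM, a change of 3.13 (SE 0.06, adjusted p = 9.29e-13). IRF7 went from 2.75 and 3.10 to 13.5 and 15.2 CPM, a change of 2.31 (SE 0.14, adjusted p = 8.708e-09).

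Genes of the list that fell with IFN-γ included IKBKE and RNASEH2C. IKBKE encodes the kinase most closely related to TBK1, and it went from 10.5 and 10.8 to 2.22 and 2.53 CPM, a log2 change of -2.15 (SE 0.16, adjusted p = 3.432e-08). RNASEH2C, a subunit of an enzyme that cuts RNA paired with DNA, changed by -1.64 (SE 0.16, adjusted p = 8.204e-07). Of its exon bases, 75.6% lie in the span of another gene, as do 30.7% of those of IKBKE. TICAM1, the adaptor of TLR3, was called higher (1.14, adjusted p = 2.091e-06), and TRIM25, a ubiquitin ligase of the RIGI route, likewise (1.64, adjusted p = 2.027e-10). For TRIM25, 59.3% of exon bases lie in the span of another gene. UNC93B1, which brings TLR3 to endosomes, was called lower, from 70.2 and 81.0 to 29.9 and 28.8 CPM (-1.37, adjusted p = 1.287e-08).

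With AX-0085 added to IFN-γ, DDX60, PPP1R15A and IRF7 fell, and IKBKE and UNC93B1 rose. Of the 34 genes, 3 were called higher and 6 lower, beside 16.6% and 8.31% of all genes, with a median of -0.26 against 0.03 for all genes. DDX60 fell to 8.73 and 6.97 CPM (log2 -3.27, SE 0.11, adjusted p = 7.34e-11), PPP1R15A to 57.1 and 54.0 CPM (-2.93, SE 0.06, adjusted p = 1.931e-12) and IRF7 to 2.62 and 2.97 CPM (-2.38, SE 0.15, adjusted p = 9.51e-09). UNC93B1 rose to 129 and 121.2 CPM (2.09, SE 0.08, adjusted p = 3.377e-10), above the untreated libraries. IKBKE rose to 7.19 and 6.25 CPM (1.497, SE 0.16, adjusted p = 2.297e-06), still below them.

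AX-0085 alone gave 0 called genes of the 34 in either direction in edgeR's test, beside 6.48% higher and 5.64% lower of all genes, and DESeq2 also called 0, although 7 were higher and 8 lower at an adjusted p under 0.05, beside 26.8% and 26.7% of all genes, and 8 higher and 9 lower at an unadjusted one. The median log2 change was 0.04 against 0.01 for all genes. With both agents against untreated cells, where 7.59% of all genes were called higher and 7.28% lower, edgeR and DESeq2 called 0 higher, 13 were higher at an unadjusted p under 0.05, and 1 was called lower, RNASEH2C (-1.20, adjusted p = 1.406e-05). Against AX-0085 alone, both agents gave 0 calls in either direction by edgeR and DESeq2, where 1.79% of all genes were called each way by edgeR, with 13 higher and 5 lower at an unadjusted p under 0.05. In the interaction, beside 12.2% higher and 6.54% lower of all genes, 2 were called higher, IKBKE (1.86) and UNC93B1 (4.00-fold), and 5 lower, led by DDX60 (-3.36), PPP1R15A (-2.73) and IRF7 (-2.35).

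Differences between the roles were not tested. With IFN-γ, where 10.3% of all genes were called higher and 17.2% lower, the DNA-sensing regulators had 1 lower and no higher of 7 tested, and RNA-sensing regulators had 3 higher and 1 lower of 9. The kinases, scaffolds and transcription factors had 2 higher and 1 lower of 10, the group of eIF2α kinases, their substrate and PPP1R15A 2 and 0 of 5, and the endosomal arm 1 and 1 of 3. In the eIF2α group, the 2 genes were the substrate EIF2S1 (log2 1.05) and PPP1R15A (3.13). The kinases EIF2AK1, EIF2AK3 and EIF2AK4 were not called. In all, 10 list genes had 0 counts in every library, among them TLR7, TLR8, TLR9, TREX1, IFNB1, CXCL10 and CCL5. For 6 of those 10 (TLR9, RNF125, TREX1, RNASEH2A, CXCL10 and CCL5), at least 99% of exon bases lie inside another gene's span, as with RIGI, and their 0 counts were not read as levels. The other 6 untested genes, ZBP1, AIM2, PYHIN1, MNDA, IFNL1 and IFNL2, had counts but did not pass the filter. None of the 6 cytokine genes, the products of these pathways, could be tested.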

How the data were processed

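The 8 RNA libraries of A549 cells were assigned to 4 groups of 2 by the sample labels. Per the submitters' processing notes, reads were demultiplexed with bcl2fastq 2.20, trimmed with Trim Galore 0.6.7, mapped with STAR 2.7.9a and counted with featureCounts. The authors deposited raw counts per gene without normalization. The annotation release, the strand setting and the handling of multimapped reads are not given in the sources used here, and overlaps were taken from GENCODE 44. Total counts per library ranged from 20672828 to 29978251, and the libraries of a group differed by more than counting noise (chi-square per degree of freedom 8.55 to 27.7).

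Of the 60664 genes, 26065 had a count and 15066 passed edgeR's filterByExpr. All 8 libraries entered 1 model of the 4 groups with TMM factors and edgeR 4.0.16's quasi-likelihood test in R 4.3.3, tested on simulated data. A call needed a change over 2-fold and an adjusted p (Benjamini-Hochberg, over all tested genes) under 0.05. With 2 libraries against 2, an exact permutation test of a single value cannot go below 0.333, so none was run. Named were all members, the 3 largest called rises and falls of the pathway list in each comparison, and the 2 genes most like each member whose mean log2 CPM reached 2. A pathway gene that meets this rule is not reported here. Further called pathway genes (TICAM1, TRIM25 and UNC93B1 with IFN-γ) were picked for naming with their values in view. The members, lists and tests were chosen with earlier results of these data known. Alternatives were DESeq2 1.42.0, RLE factors, library size alone, other filters, a prior count of 2, fits limited to the compared groups, calls by adjusted p alone, glmTreat, a replicate block and leaving out each library. A block with the untreated numbers swapped was chosen after seeing the data.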

Additional observations from a re-analysis of the deposited data

Results flagged for a closer look

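The effect of AX-0085 differed between cells with and without IFN-γ for 7 of the 9 measured members, by the interaction term of edgeR's quasi-likelihood test at an adjusted p under 0.05 and any fold (1 higher and 6 lower, beside 26.8% and 23.7% of all genes). The log2 effect with IFN-γ minus that without was -3.74 for TLR3 (adjusted p = 4.928e-07), -3.61 for IFI16 (adjusted p = 2.06e-08) and -2.98 for IFIH1 (adjusted p = 2.222e-08). It was -0.85 for EIF2AK2 (adjusted p = 0.000284), -0.60 for TBK1 (adjusted p = 0.002332), -0.45 for CGAS (adjusted p = 0.03821) and 0.34 for MAVS (adjusted p = 0.002551), each under 2-fold. For TLR3 the 2 effects had opposite signs, 2.16 without IFN-γ and -1.58 with it. The same held for IFI16, at 1.06 and -2.55, and for IFIH1, at 0.92 and -2.06. EIF2AK2 had 0.11 and -0.74, but its effect without IFN-γ did not pass the test (adjusted p = 0.3781). For CGAS both effects were negative, -0.94 and -1.39. Those of TBK1 were also negative, -0.195 (adjusted p = 0.1024) and -0.80. For MAVS both were positive, 0.28 and 0.62. Without IFN-γ replicate 1 the value of EIF2AK2 was -1.02 and passed the 2-fold threshold.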

How the results depend on the processing

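Of 948 values for single members over the alternatives, 929 kept their direction and their side of the threshold, 7 lost the call, 4 gained one and 8 changed sign. Of 214 counts of called members, 198 stayed within 1.5 times and 16 moved. With the adjusted p alone, IFN-γ gave 7 members higher and 2 lower, beside 32.1% and 36.0% of all genes. AX-0085 added to IFN-γ gave 1 higher, beside 33.8%, and AX-0085 alone 4 higher and 1 lower, beside 26.8% and 26.7%. Both against AX-0085 gave 2 higher, beside 17.3%, and both against untreated cells 3 lower, beside 28.9%. The interaction gave 1 higher and 6 lower, beside 26.8% and 23.7%. A filter on 10 counts in every library removed STING1 and DHX58, and thus left 0 members called lower with IFN-γ, with both against AX-0085 and with both against untreated cells. In that order, 2840, 245 and 1386 of 12379 genes were called under this filter, in both directions together. With glmTreat against a 2-fold change, AX-0085 alone left 1 member higher and both against AX-0085 left 0 lower (STING1, adjusted p = 0.05657), and the call of DHX58 with IFN-γ was lost (adjusted p = 0.2294). Of all 15066 genes, glmTreat called 610 with AX-0085 alone and 79 with both against AX-0085, in both directions together. Leaving out 1 library at a time gave 0 to 1 members called lower with AX-0085 alone. The values that changed sign were not called in either case, and the cause was not tested. Over the fits that left out 1 library, DHX58 ranged from -1.12 to 0.17 and STING1 from -0.82 to 0.10 for both agents against IFN-γ, positive without IFN-γ replicate 1. With AX-0085 alone, DHX58 ranged from -0.16 to 1.30 and STING1 from -0.24 to 0.15, with changed signs without untreated replicate 1 and, for STING1, also without AX-0085 replicate 1 (0.030). EIF2AK2 ranged from -0.16 to 0.061 with both against untreated cells, positive without untreated replicate 1. In the interaction, STING1 ranged from -0.75 to 0.18, positive without IFN-γ replicate 1 and without replicate 2 of both agents (0.076). Scaling by library size alone moved the median of all genes from -0.06 to -0.17 with IFN-γ, from 0.03 to 0.16 when AX-0085 followed it, and from 0.05 to 0.17 in the interaction, and no member changed direction. Deviations of same-numbered libraries correlated between -0.216 and 0.236, both untreated against AX-0085 (-0.216) and untreated against IFN-γ (-0.215) being negative, and were not taken as pairs. The replicate block left 4 members called higher and 1 lower with IFN-γ, and over all genes 4110 calls beside 4135. With the untreated numbers swapped, the block gave 4137 calls with IFN-γ and the same count of called members in each direction of each comparison. Levels near 3 counts limit DHX58 and STING1.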
